A study of Homo sapiens with 6 samples.

Results

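The genes described here encode the structural proteins of the human centromere and kinetochore: the CENP-A nucleosome and its loading factors, the constitutive centromere network, the KNL1, MIS12 and NDC80 complexes, the SKA complex, the RZZ complex with its partner Spindly, and CENP-F. They were 36 symbols listed by name, and all 36 were found among the 61552 genes of the deposited table. The cells were SKOV3, a long-established line from a human ovarian cancer. The fenbendazole group had been treated for 48 h with fenbendazole at 1 µM (libraries 7, 8 and 9). The DMSO group received the vehicle DMSO alone, also for 48 h (libraries 10, 11 and 12). Fenbendazole is a benzimidazole against parasitic worms that binds tubulin, the subunit of the microtubules that kinetochores grip. The DMSO controls carried the same cells and no drug, and nothing in the labels says that the 3 libraries of a group were separate cultures. Poly(A) RNA was sequenced from bulk cells, and p-values here therefore reflect how far these libraries differ from each other, a spread that may be only technical.

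The centromere is the site on each chromosome where a histone H3 variant, CENP-A, replaces the usual histone. A network of CENP proteins sits on it throughout the cell cycle and, in mitosis, recruits the outer kinetochore. There the NDC80 complex holds the microtubule, MIS12 links it to the inner proteins, KNL1 carries the checkpoint kinases, and SKA and RZZ strengthen and monitor the attachment. Many of these genes are transcribed mainly in late S, G2 and M phase, and some of the proteins are made throughout the cycle.

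Of the 6 libraries, DMSO 11 stood apart. The libraries held 13170775 to 22128930 counts. Counts of every pair of libraries within a group differed more than sampling alone allows, and those of DMSO 11 did so most. The chi-square over its degrees of freedom was 79.2 and 87.2 for DMSO 11 against DMSO 10 and DMSO 12. It was 8.47 between DMSO 10 and 12 and 4.86 to 6.94 among the treated libraries. This value grows with depth, and DMSO 11 was the deepest library. Over all tested genes, transcripts rich in G and C were higher, and those rich in A and T lower, in DMSO 11 than in the other controls (Spearman rho = 0.80 over genes, a description within these libraries). The epithelial identity of the line was present: 10 of 12 epithelial and ovarian markers had at least 1 FPKM (fragments scaled by transcript length and by library depth) in every library, and WT1 and MUC16 were the exceptions. Summed, these 12 markers reached 1491 to 1664 FPKM with fenbendazole and 2419 to 4540 FPKM in DMSO, mostly ERBB2 (836 to 934 FPKM with fenbendazole and 1618 to 3408 FPKM in DMSO). KRT7 lay the other way, at 131 to 141 FPKM with fenbendazole and 45.3 to 122 FPKM in DMSO. Of the leukocyte, fibroblast and endothelial lists, CD3E was listed at 0 in every library and PTPRC, DCN and VWF stayed under 0.1 FPKM. The sums of the leukocyte list were 7.24 to 7.96 FPKM with fenbendazole and 5.998 to 10.04 FPKM in DMSO, mostly CD68, those of the fibroblast list 5.75 to 6.91 with fenbendazole and 5.86 to 13.5 in DMSO, mostly COL1A1. Those of the endothelial list, mostly PECAM1, were 1.64 to 1.96 with fenbendazole and 1.31 to 2.398 in DMSO. The part of these markers in the results below was not tested.

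With fenbendazole 25 of the 36 genes rose and 0 fell at a Benjamini-Hochberg adjusted p of 0.05 in edgeR's quasi-likelihood test fitted over all 17363 tested genes, of which 4.03% were called, 3.11% higher and 0.921% lower. All 36 passed the filter on low counts. The median log2 fold change of the 36 was 1.82, against -0.06 over all tested genes. The folds of the 25 ran from 1.93 (CENPO) to 7.09 (NUF2). In 32 of the 36, every fenbendazole library lay above every DMSO library, as in 17.0% of all tested genes; the other 4 were CENPC, CENPT, CENPX and PMF1, whose groups overlapped. Summed over the 36 genes, the level was 2279 to 2512 CPM (counts put on 1 library scale by TMM factors) with fenbendazole and 562 to 823 CPM in DMSO, where DMSO 11 was the lowest. In bulk RNA, a larger share of cells in a phase of the cycle and more RNA per cell cannot be told apart.

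**Figure D1:**
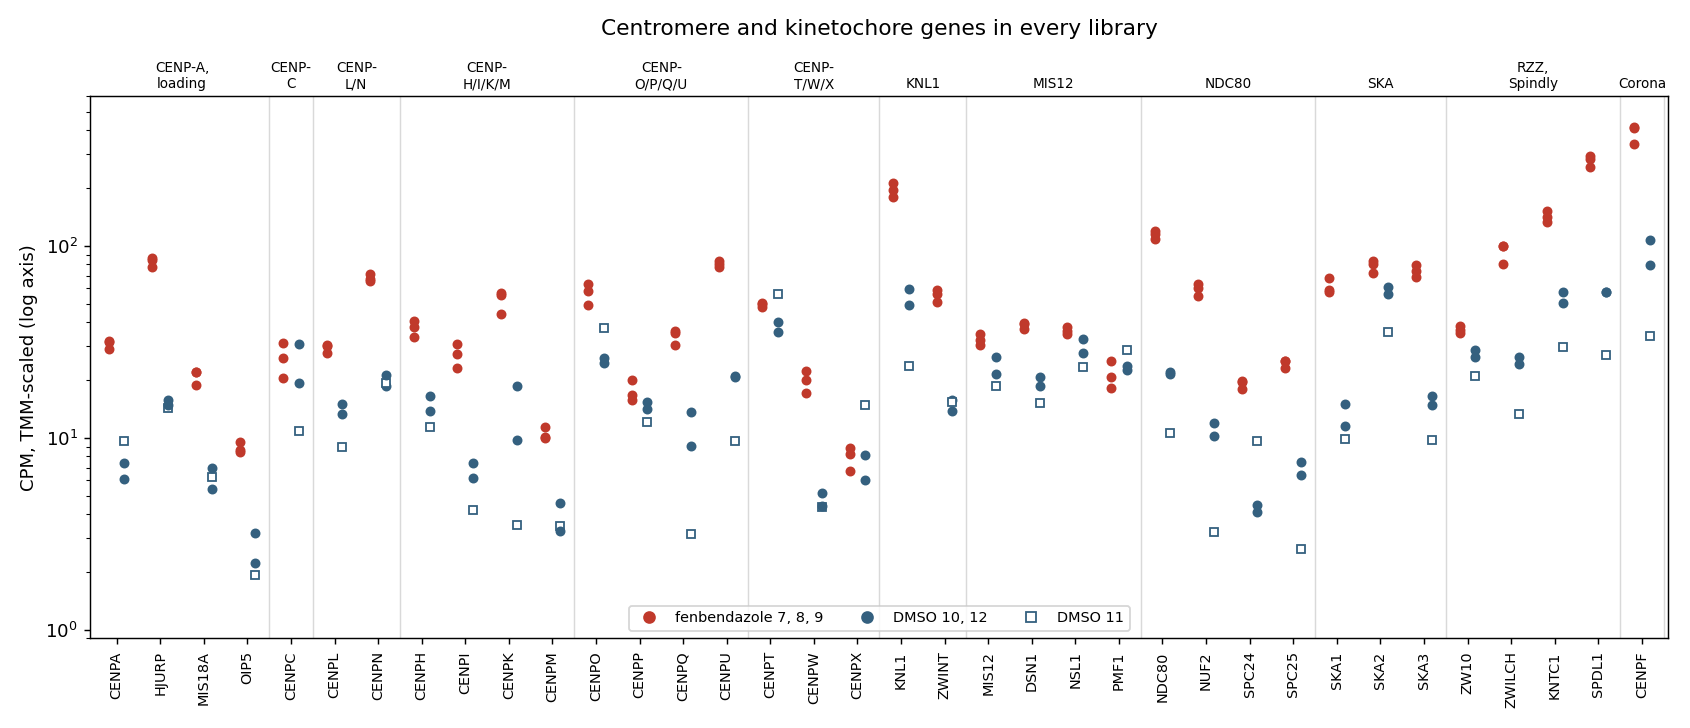
Level of the 36 genes in every library, in CPM on a log axis, with genes grouped by complex, fenbendazole libraries as red points on the left and DMSO libraries in blue on the right of each gene, and DMSO 11 as an open square. Fenbendazole points lie above all DMSO points in 32 genes, and DMSO 11 is the lowest control in 26 genes and the highest in 6.

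By complex, all 4 genes of CENP-A loading, both of the CENP-L/N pair, both of the KNL1 group, all 4 of the NDC80 complex and CENPF rose. Of the CENP-H/I/K/M group 3 of 4 rose, of RZZ and Spindly 3 of 4, of SKA 2 of 3, and of CENP-O/P/Q/U 2 of 4. Only DSN1 of the 4 MIS12 complex genes and only CENPW of the CENP-T/W/X group of 3 passed the threshold, and CENPC did not. The median log2 fold change was 2.42 in the NDC80 complex and 0.46 in the MIS12 complex, which bind each other in the kinetochore. These counts describe the complexes, and the difference between them was not tested.

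**Figure D2:**
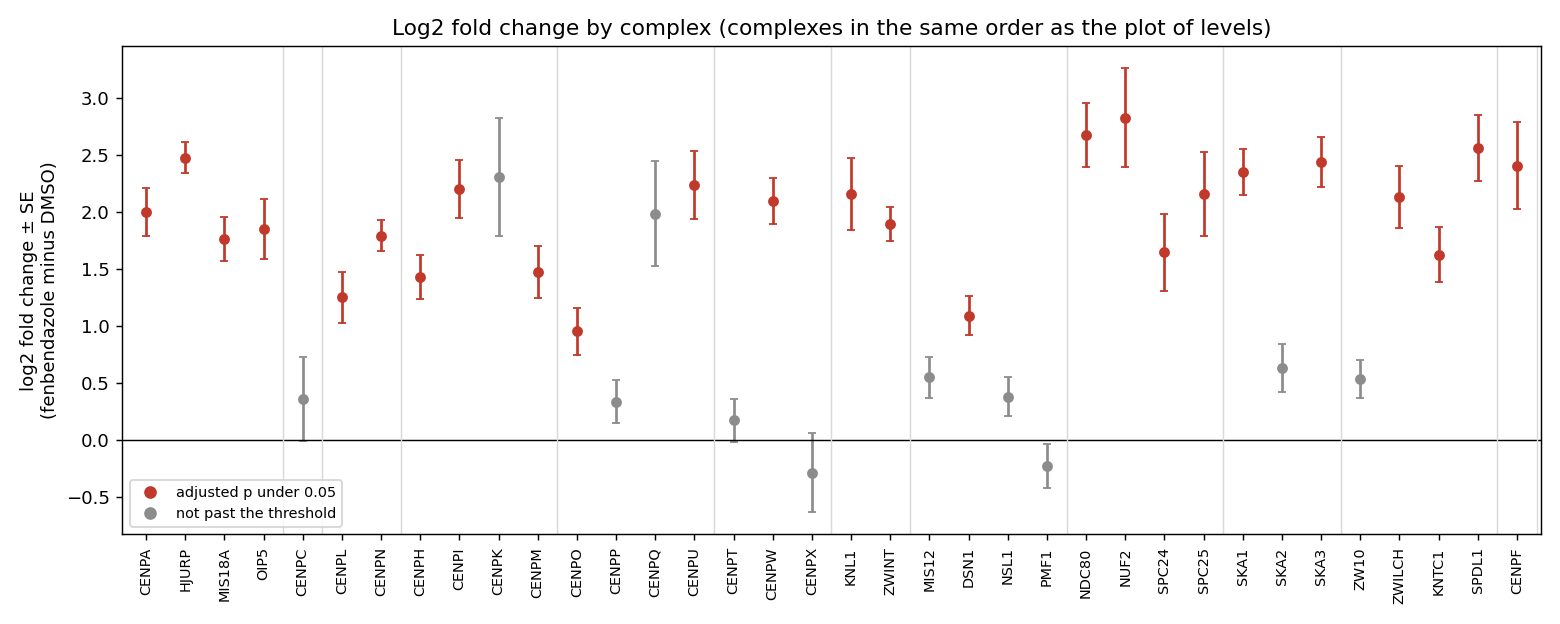
Log2 fold change (fenbendazole minus DMSO, y axis) with its standard error for each of the 36 genes, in the order of the plot of levels, with red for an adjusted p under 0.05 and grey for the rest. The 4 genes of the NDC80 complex lie between 1.64 and 2.83, and the 4 genes of the MIS12 complex between -0.23 and 1.09.

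Many genes transcribed in G2 and M phase carry a cell cycle homology region (CHR), a DNA word read by the MuvB complex, near their start. RefSeq promoter windows (GRCh38.p14, 250 bases before to 50 after a start) were at hand for 30 of the 36 genes, 19 that rose and 11 that did not pass the threshold. The word TTTGAA, searched on both strands, was in a window of 12 of the 19 and 2 of the 11, against 18.2% of all 27305 genes in that table. Within 50 bases of a start, a distance chosen after the positions were seen, it was in 11 of the 19, in 0 of the 11 and in 5.77% of all genes. This contrast of called with uncalled genes was not tested. The related TTTAAA was in 2 of the 19 and 0 of the 11 (14.5% of all genes). The word CCAAT, known from promoters of mitotic genes, was in 12 of the 19 and 9 of the 11 (39.7%). Of the words taken for E2F sites, TTCCCGC was in 6 of the 19 and 2 of the 11 (7.82%), TTTGGCG in 3 and 0 (2.32%) and TTTCGCG in 1 and 0 (1.60%). The sites are shown because 12 of the 19 genes that rose share this word. Each is read 5′ to 3′ on the strand on which the word reads TTTGAA, in capitals, with up to 12 bases on each side and the position from the start of the RNA of the base of the word that lies farthest upstream in the gene's own direction. The site of CENPF, at 41, lies too close to the end of its window to be shown, and SPC25 holds another, not shown, at -247.
CENPA (chr2:26786026-26786055, plus strand, from -18): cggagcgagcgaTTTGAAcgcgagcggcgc
CENPN (chr16:81007205-81007234, plus strand, from 4): gcaattggtggcTTTGAAggcgcggcgagc
CENPO (chr2:24793449-24793474, plus strand, from 37): ggttggtttggtTTTGAAgacgtgga
HJURP (chr2:233854629-233854658, minus strand, from -111): gacgcaaatttgTTTGAAaggcccaatcag
NDC80 (chr18:2571542-2571571, minus strand, from -3): aagccgttcgaaTTTGAAattctccgccgg
NUF2 (chr1:163321958-163321987, plus strand, from 17): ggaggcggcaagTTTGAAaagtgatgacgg
SKA1 (chr18:50375068-50375095, plus strand, from 35): cgcggcgggcggTTTGAAttttgcttac
SKA3 (chr13:21176538-21176567, plus strand, from -3): tcccgccactagTTTGAAtctcggcgccgg
SPC25 (chr2:168890416-168890445, minus strand, from -3): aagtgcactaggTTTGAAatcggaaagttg
SPDL1 (chr5:169583741-169583770, minus strand, from -20): gcgcctgggataTTTGAAtgcagttcccgc
ZWINT (chr10:56361273-56361302, plus strand, from -31): ccctaagattacTTTGAAgtcacagtcgac
CENPC (chr4:67545576-67545605, plus strand, from -90): cctgtgcctgggTTTGAAcccggagacaca
ZW10 (chr11:113773899-113773928, minus strand, from -224): gaagcaacgaacTTTGAAaacaactaagga
In 11 of the 12 genes that rose, that base lay between -31 and 41 from the start. In HJURP it lay at -111, near a CCAAT word at -101. In CENPC and ZW10, which did not pass the threshold, it lay at -90 and -224. A match is a description of the letters and no evidence of binding, and a window without it says nothing of the factor.

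CENP-A and the machinery that loads it rose together. CENPA (ENSG00000115163, chromosome 2, 26764289 to 26801067, GRCh38) encodes the centromeric histone itself. With fenbendazole, CENPA had 28.9, 31.97 and 31.4 CPM in libraries 7, 8 and 9, against 7.36, 9.57 and 6.099 CPM in DMSO 10, 11 and 12. The treated libraries lay close together and above all controls, of which DMSO 11 was the highest. The difference was 3.99-fold (log2 fold change 2.00 ± 0.211 SE, adjusted p = 0.00347). HJURP (ENSG00000123485, chromosome 2, 233833416 to 233854566, GRCh38) encodes the chaperone that delivers new CENP-A. The treated libraries 7, 8 and 9 held 77.6, 86.1 and 84.9 CPM of HJURP, and DMSO 10, 11 and 12 held 15.7, 14.2 and 14.8 CPM. The controls were close to each other, with DMSO 11 the lowest by a little, and HJURP had the smallest p of all 36 genes (5.56-fold, log2 fold change 2.48 ± 0.138 SE, adjusted p = 0.000521). MIS18A and OIP5 encode subunits of the MIS18 complex, which licenses the centromere for loading. For MIS18A, CPM was 22.1, 18.8 and 22.02 in fenbendazole 7, 8 and 9 and 5.41, 6.23 and 6.92 in DMSO 10, 11 and 12. OIP5 measured 8.61, 8.44 and 9.48 CPM in fenbendazole 7, 8 and 9 and 3.18, 1.93 and 2.23 CPM in DMSO 10, 11 and 12. Neither gene's groups overlapped, and the rises were 3.39-fold and 3.61-fold. OIP5 overlaps NUSAP1 and OIP5-AS1 on the opposite strand, which held 6943 and 25946 counts against its own 539 over the 6 libraries, and NUSAP1 also rose (log2 fold change 1.89 ± 0.356 SE, adjusted p = 0.0306), so the reads of OIP5 cannot be assigned with certainty. CENPA overlaps SLC35F6 on the same strand, which held 21613 counts against its own 1845 and had a log2 fold change of -0.40.

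The constitutive network was split. CENP-C, its scaffold, showed no detectable change. Values of CENPC were 25.95, 20.6 and 31.3 CPM in fenbendazole 7, 8 and 9, and 19.3, 10.8 and 30.9 CPM in DMSO 10, 11 and 12. DMSO 12 lay within the treated range, close to its top, and DMSO 10 and 11 lay below all treated libraries (log2 fold change 0.36 ± 0.367 SE, adjusted p = 0.603). Of its partners that read the CENP-A nucleosome, CENPN rose 3.46-fold and CENPL 2.38-fold. CENPN was at 71.6, 66.97 and 65.7 CPM in fenbendazole 7, 8 and 9, against 18.7, 19.2 and 21.1 CPM in DMSO 10, 11 and 12. With fenbendazole, CENPL had 30.5, 27.6 and 30.2 CPM in libraries 7, 8 and 9, against 14.99, 8.95 and 13.2 CPM in DMSO 10, 11 and 12. The controls of CENPN lay close together and it had an adjusted p of 0.00103, while in CENPL DMSO 11 lay below the other controls and the adjusted p was 0.0236. CENPN overlaps CMC2 on the opposite strand, which also rose (log2 fold change 0.86 ± 0.161 SE, adjusted p = 0.0291).

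In the CENP-H/I/K/M group, which bridges CENP-C to the other subunits, CENPI rose 4.596-fold, CENPM 2.78-fold and CENPH 2.69-fold. The treated libraries 7, 8 and 9 held 23.1, 27.3 and 30.98 CPM of CENPI, and DMSO 10, 11 and 12 held 7.36, 4.21 and 6.17 CPM. For CENPH, CPM was 33.4, 37.8 and 40.5 in fenbendazole 7, 8 and 9 and 16.4, 11.4 and 13.8 in DMSO 10, 11 and 12. CENPM measured 9.997, 11.4 and 10.1 CPM in fenbendazole 7, 8 and 9 and 4.57, 3.47 and 3.27 CPM in DMSO 10, 11 and 12. In each the 3 treated libraries lay above all controls. CENPK had the largest difference of the group and did not pass. Values of CENPK were 56.5, 43.9 and 55.4 CPM in fenbendazole 7, 8 and 9, and 9.75, 3.51 and 18.5 CPM in DMSO 10, 11 and 12. Its controls were spread widely, from DMSO 11 at the bottom to DMSO 12 at the top, and all lay below the treated libraries (4.96-fold, log2 fold change 2.31 ± 0.519 SE, adjusted p = 0.0566). Its longest transcript is the poorest in G and C of the 36, at 32.9%.

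CENPO, CENPP, CENPQ and CENPU encode subunits of one subcomplex, which docks on CENP-H/I/K/M and recruits the kinase PLK1 through CENP-U. CENPU rose most. CENPU was at 80.9, 77.3 and 82.9 CPM in fenbendazole 7, 8 and 9, against 21.01, 9.61 and 20.8 CPM in DMSO 10, 11 and 12. The treated libraries lay close together, and DMSO 11 was far below both other controls, which were alike (4.702-fold, log2 fold change 2.23 ± 0.296 SE, adjusted p = 0.00865). With fenbendazole, CENPQ had 35.9, 30.3 and 35.3 CPM in libraries 7, 8 and 9, against 9.08, 3.16 and 13.7 CPM in DMSO 10, 11 and 12. The groups of CENPQ were apart in every library, yet with DMSO 11 at the bottom of a wide control range it missed the threshold (3.95-fold, log2 fold change 1.98 ± 0.462 SE, adjusted p = 0.0622). The treated libraries 7, 8 and 9 held 57.9, 63.0 and 49.3 CPM of CENPO, and DMSO 10, 11 and 12 held 24.5, 37.3 and 26.03 CPM. CENPO rose 1.93-fold with an adjusted p of 0.0485, close to the threshold, and here DMSO 11 was the highest control. For CENPP, CPM was 16.7, 19.99 and 15.8 in fenbendazole 7, 8 and 9 and 15.4, 12.1 and 14.1 in DMSO 10, 11 and 12. CENPP differed little between groups (1.26-fold, adjusted p = 0.342). Its gene spans 92325953 to 92620529 on chromosome 9 and overlaps ECM2 and IPPK on the opposite strand, and CENPO overlaps ADCY3 and PTRHD1.

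CENPT, CENPW and CENPX encode histone-fold proteins, of which CENP-T is a second anchor for the NDC80 complex and CENP-W its direct partner. Only CENPW rose. CENPW measured 22.2, 19.99 and 17.02 CPM in fenbendazole 7, 8 and 9 and 5.13, 4.34 and 4.39 CPM in DMSO 10, 11 and 12. Its groups were far apart (4.27-fold, log2 fold change 2.09 ± 0.203 SE, adjusted p = 0.00227). Values of CENPT were 49.6, 50.7 and 48.3 CPM in fenbendazole 7, 8 and 9, and 35.5, 56.03 and 40.2 CPM in DMSO 10, 11 and 12. For CENPT, DMSO 11 lay above every treated library and the other controls lay below them, and the log2 fold change was 0.17 ± 0.191 SE (adjusted p = 0.632). CENPX was at 6.75, 8.23 and 8.89 CPM in fenbendazole 7, 8 and 9, against 8.14, 14.9 and 6.03 CPM in DMSO 10, 11 and 12. CENPX, which also serves in the Fanconi anemia DNA repair machinery, had overlapping groups with DMSO 11 the highest (log2 fold change -0.29 ± 0.346 SE, adjusted p = 0.658). Without DMSO 11 the sign of CENPX turned, to a log2 fold change of 0.17, and with offsets for G and C content it was 0.32. CENPT and CENPX share their span with genes on the opposite strand, among them NUTF2 and LRRC45.

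The microtubule-binding NDC80 complex held the 2 largest folds of all 36 genes, those of NUF2 and NDC80, but without DMSO 11 HJURP came first (5.46-fold), ahead of NUF2 (5.39-fold) and NDC80 (5.298-fold). NDC80 (ENSG00000080986, chromosome 18, 2571557 to 2616635, GRCh38) encodes the subunit with the main microtubule-binding domain. With fenbendazole, NDC80 had 116, 109 and 119.6 CPM in libraries 7, 8 and 9, against 22.01, 10.6 and 21.5 CPM in DMSO 10, 11 and 12. The treated libraries lay at about the same level and all controls far below them, with DMSO 11 lowest (6.38-fold, log2 fold change 2.67 ± 0.281 SE, adjusted p = 0.00348). The treated libraries 7, 8 and 9 held 63.2, 54.9 and 60.4 CPM of NUF2, and DMSO 10, 11 and 12 held 11.9, 3.25 and 10.2 CPM. NUF2, the partner of NDC80 in the same coiled coil, rose 7.09-fold (log2 fold change 2.83 ± 0.435 SE, adjusted p = 0.0145), and 5.39-fold without DMSO 11, which was the lowest control by far. SPC24 and SPC25 encode the other end of the complex, which binds MIS12 and CENP-T. For SPC25, CPM was 25.2, 25.04 and 23.2 in fenbendazole 7, 8 and 9 and 7.52, 2.63 and 6.397 in DMSO 10, 11 and 12. SPC24 measured 19.8, 17.97 and 19.6 CPM in fenbendazole 7, 8 and 9 and 4.12, 9.61 and 4.46 CPM in DMSO 10, 11 and 12. They differed in DMSO 11, which was the lowest control for SPC25 and the highest for SPC24. SPC25 rose 4.46-fold (adjusted p = 0.0208) and SPC24 3.13-fold (adjusted p = 0.0437), and without DMSO 11 the folds were 3.52 and 4.48.

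The MIS12 complex, the link between NDC80 and the inner kinetochore, had the smallest median log2 fold change of the outer complexes (0.46). Values of DSN1 were 39.5, 36.9 and 39.3 CPM in fenbendazole 7, 8 and 9, and 20.7, 15.1 and 18.6 CPM in DMSO 10, 11 and 12. DSN1, the subunit that Aurora B phosphorylates, rose 2.13-fold (log2 fold change 1.09 ± 0.172 SE, adjusted p = 0.0153). MIS12 was at 32.3, 34.6 and 30.4 CPM in fenbendazole 7, 8 and 9, against 21.5, 18.6 and 26.5 CPM in DMSO 10, 11 and 12. With fenbendazole, NSL1 had 34.9, 35.9 and 37.9 CPM in libraries 7, 8 and 9, against 32.6, 23.3 and 27.7 CPM in DMSO 10, 11 and 12. For MIS12 and NSL1 every treated library was above every control, but the differences were small, 1.46-fold (adjusted p = 0.141) and 1.301-fold (adjusted p = 0.25). The treated libraries 7, 8 and 9 held 18.1, 20.8 and 25.03 CPM of PMF1, and DMSO 10, 11 and 12 held 23.6, 28.8 and 22.5 CPM. PMF1 groups overlapped, with a log2 fold change of -0.23 ± 0.192 SE (adjusted p = 0.516). PMF1 overlaps the read-through gene PMF1-BGLAP on the same strand, which held 538 counts against 2369 of PMF1, and MIS12 overlaps DERL2 on the opposite strand.

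KNL1, the large scaffold that docks the checkpoint proteins BUB1 and BUB3, rose with its partner ZWINT. For KNL1, CPM was 197, 181 and 212 in fenbendazole 7, 8 and 9 and 49.3, 23.7 and 59.4 in DMSO 10, 11 and 12. All treated libraries were more than 3 times the highest control, and DMSO 11 stood far below both other controls (4.46-fold, log2 fold change 2.16 ± 0.315 SE, adjusted p = 0.012). ZWINT measured 51.2, 58.9 and 56.4 CPM in fenbendazole 7, 8 and 9 and 15.7, 15.3 and 13.8 CPM in DMSO 10, 11 and 12. ZWINT varied little within either group (3.72-fold, log2 fold change 1.89 ± 0.150 SE, adjusted p = 0.00105).

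In the SKA complex, which tracks microtubule ends, SKA1 and SKA3 rose and SKA2 did not pass the threshold. Values of SKA1 were 58.9, 57.4 and 68.3 CPM in fenbendazole 7, 8 and 9, and 14.99, 9.83 and 11.5 CPM in DMSO 10, 11 and 12. SKA3 was at 73.6, 69.1 and 79.2 CPM in fenbendazole 7, 8 and 9, against 14.8, 9.79 and 16.6 CPM in DMSO 10, 11 and 12. Both had treated libraries far above the controls, at 5.09-fold (log2 fold change 2.35 ± 0.201 SE, adjusted p = 0.0014) and 5.404-fold (log2 fold change 2.43 ± 0.2197 SE, adjusted p = 0.00178). With fenbendazole, SKA2 had 80.4, 72.3 and 83.1 CPM in libraries 7, 8 and 9, against 60.7, 35.7 and 55.8 CPM in DMSO 10, 11 and 12. SKA2 lay above all controls in every treated library by a smaller margin (1.55-fold, log2 fold change 0.63 ± 0.208 SE, adjusted p = 0.144).

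The RZZ complex (KNTC1, ZW10 and ZWILCH) forms the fibrous corona of unattached kinetochores, and Spindly, encoded by SPDL1, ties it to dynein. The treated libraries 7, 8 and 9 held 294, 258 and 283 CPM of SPDL1, and DMSO 10, 11 and 12 held 57.2, 26.9 and 57.8 CPM. SPDL1 rose 5.89-fold (log2 fold change 2.56 ± 0.292 SE, adjusted p = 0.00464), with all controls far below the treated libraries and DMSO 11 the lowest. For ZWILCH, CPM was 99.8, 80.6 and 99.2 in fenbendazole 7, 8 and 9 and 26.5, 13.3 and 24.3 in DMSO 10, 11 and 12. KNTC1 measured 133, 141 and 152 CPM in fenbendazole 7, 8 and 9 and 57.8, 29.8 and 50.6 CPM in DMSO 10, 11 and 12. ZWILCH rose 4.38-fold and KNTC1, which encodes the Rod subunit, 3.08-fold, with no overlap of the groups in either gene. ZWILCH overlaps RPL4 on the opposite strand, a gene with 104376 counts against its 5414. Values of ZW10 were 36.6, 35.4 and 38.2 CPM in fenbendazole 7, 8 and 9, and 28.7, 21.02 and 26.5 CPM in DMSO 10, 11 and 12. ZW10, whose product also acts in membrane traffic between mitoses, was 1.45-fold and missed the threshold (log2 fold change 0.53 ± 0.168 SE, adjusted p = 0.13). CENPF, a large corona protein that binds microtubules, had the highest mean CPM of the 36 in both groups. CPM is not corrected for length, and by mean FPKM CENPF stood 5th with fenbendazole and 16th in DMSO. CENPF was at 413, 340.3 and 416 CPM in fenbendazole 7, 8 and 9, against 79.9, 34.01 and 107 CPM in DMSO 10, 11 and 12. The lowest treated library held more than 3 times the highest control (5.297-fold, log2 fold change 2.41 ± 0.381 SE, adjusted p = 0.0161).

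Levels between genes were compared in FPKM, which corrects for length. In DMSO the 4 highest of the 36 were PMF1 (21.6 ± 4.47 FPKM, mean ± SD, n = 3), SKA2 (21.3 ± 5.76), SPDL1 (18.4 ± 6.56) and CENPT (17.97 ± 4.48), whose library values overlapped. With fenbendazole SPDL1 (99.6 ± 7.11) was the highest and NDC80 (48.2 ± 2.72) next, and each lay apart from all genes below it in every library. PMF1 stood 20th of the 36 with fenbendazole and 1st in DMSO, and NUF2 stood 7th with fenbendazole and 27th in DMSO. CENPP was the lowest with fenbendazole (1.84 ± 0.261) and CENPI the lowest in DMSO (1.43 ± 0.198). The 25 genes that rose had a median of 21.4 FPKM with fenbendazole and 5.19 FPKM in DMSO. The other 11 had a median of 12.5 FPKM with fenbendazole and 8.07 FPKM in DMSO.

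**Figure D3:**
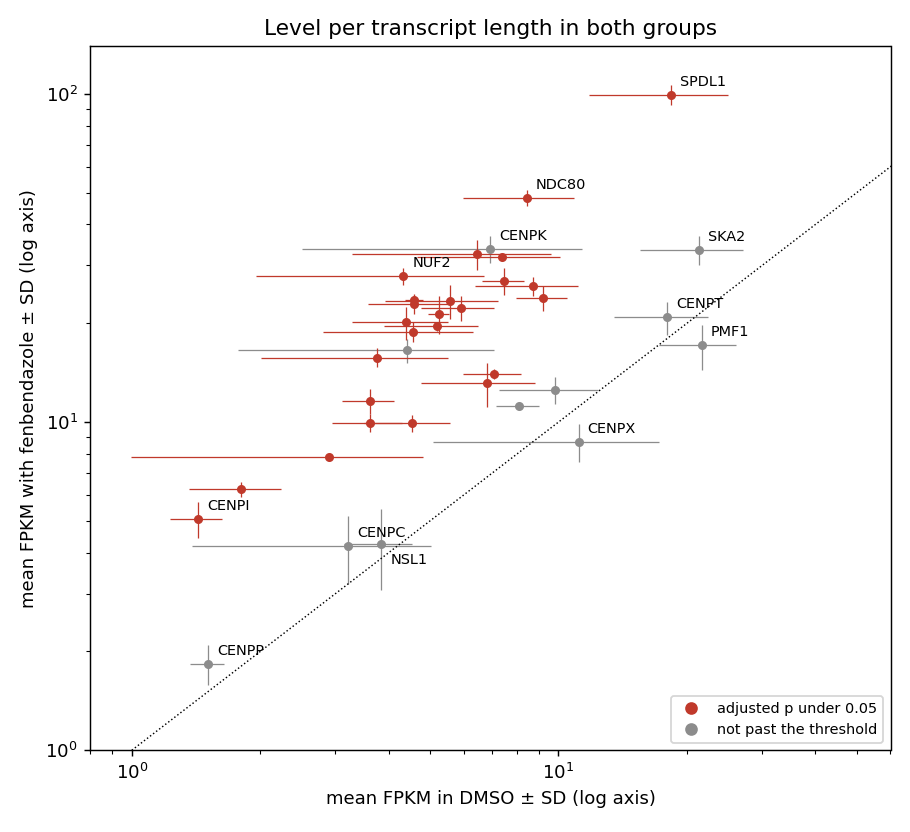
Mean FPKM with fenbendazole (y axis) against mean FPKM in DMSO (x axis), both log axes, with the SD over 3 libraries as bars, red for genes past the threshold and grey for the others, and a dotted line of equal levels. SPDL1 and NDC80 lie highest with fenbendazole, at 99.6 and 48.2 FPKM, and PMF1 and CENPX lie below the line.

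Some partner genes of which only 1 passed the threshold were also set side by side. Of the partners in these pairs that did not pass, SKA2, ZW10, MIS12 and CENPP had every treated library above every control in CPM. The groups of CENPT and PMF1 overlapped. The FPKM ratio of SKA2 to SKA1 was 1.67 ± 0.0449 with fenbendazole and 4.95 ± 1.49 in DMSO (SD, n = 3 each), and that of SKA2 to SKA3 was 1.46 ± 0.0544 with fenbendazole and 4.62 ± 0.2995 in DMSO. The ratio of CENPT to CENPW was 0.994 ± 0.251 with fenbendazole and 3.44 ± 0.920 in DMSO, and that of ZW10 to ZWILCH 0.485 ± 0.0489 with fenbendazole and 1.52 ± 0.341 in DMSO. PMF1 to DSN1 stood at 1.22 ± 0.203 with fenbendazole and 3.17 ± 1.16 in DMSO. MIS12 to NDC80 was 0.262 ± 0.0373 with fenbendazole and 1.22 ± 0.386 in DMSO, and CENPP to CENPU 0.0578 ± 0.00951 with fenbendazole and 0.225 ± 0.0814 in DMSO. Each of these FPKM ratios was lower in every treated library than in every control. This largely follows from the choice of a gene that changed little over one that rose in the same libraries. Of CENPC and CENPA, only CENPA passed the threshold. Their ratio was 0.215 ± 0.0492 with fenbendazole and 0.691 ± 0.495 in DMSO, and its groups overlapped through DMSO 11. The pairs taken from genes that rose were both of the NDC80 complex, and their ratios overlapped between groups. NDC80 to NUF2 was 1.73 ± 0.0888 with fenbendazole and 2.30 ± 0.944 in DMSO. SPC24 to SPC25 was 0.500 ± 0.0231 with fenbendazole and 1.19 ± 1.39 in DMSO, where DMSO 11 alone reached 2.80. The pairs were picked after their values were seen and were not tested. They leave out CENPK (4.96-fold) and CENPQ (3.95-fold), which missed the threshold with large differences. Mean FPKM of CENPK was 33.6 with fenbendazole and 6.93 in DMSO, and that of its partner CENPH was 23.9 and 9.22. The ratios shown therefore do not describe every pair of a called and an uncalled gene.

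DMSO 11 deviated from the other controls with the base composition of the transcript. Over the 36 genes its log2 difference from the mean of DMSO 10 and 12 ran from -1.93 (CENPK, 32.9% G and C in the longest transcript) and -1.82 (CENPQ, 33.9%) to 1.09 (CENPX, 63.9%) and 1.16 (SPC24, 53.4%), with a Spearman rho of 0.81 over these genes, which share the libraries. Of the 36 transcripts 24 were under 45% G and C. In all tested genes the median deviation was -0.75 under 40% and 1.15 above 60%. Without DMSO 11 the 25 genes that rose stood at 1.97-fold to 5.46-fold and all 25 passed, and 31 of the 36 passed in all, where 13.1% of all genes were called higher. The additional 6 were CENPK (3.74-fold), CENPQ (3.01-fold), CENPT (1.32-fold), MIS12 (1.36-fold), SKA2 (1.36-fold) and ZW10 (1.34-fold). That fit drops the control farthest from the others, which narrows the spread it is tested against. With offsets for G and C content and length, 30 of the 36 were called higher and 0 lower, where 12.1% of all genes were called higher.

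**Figure D4:**
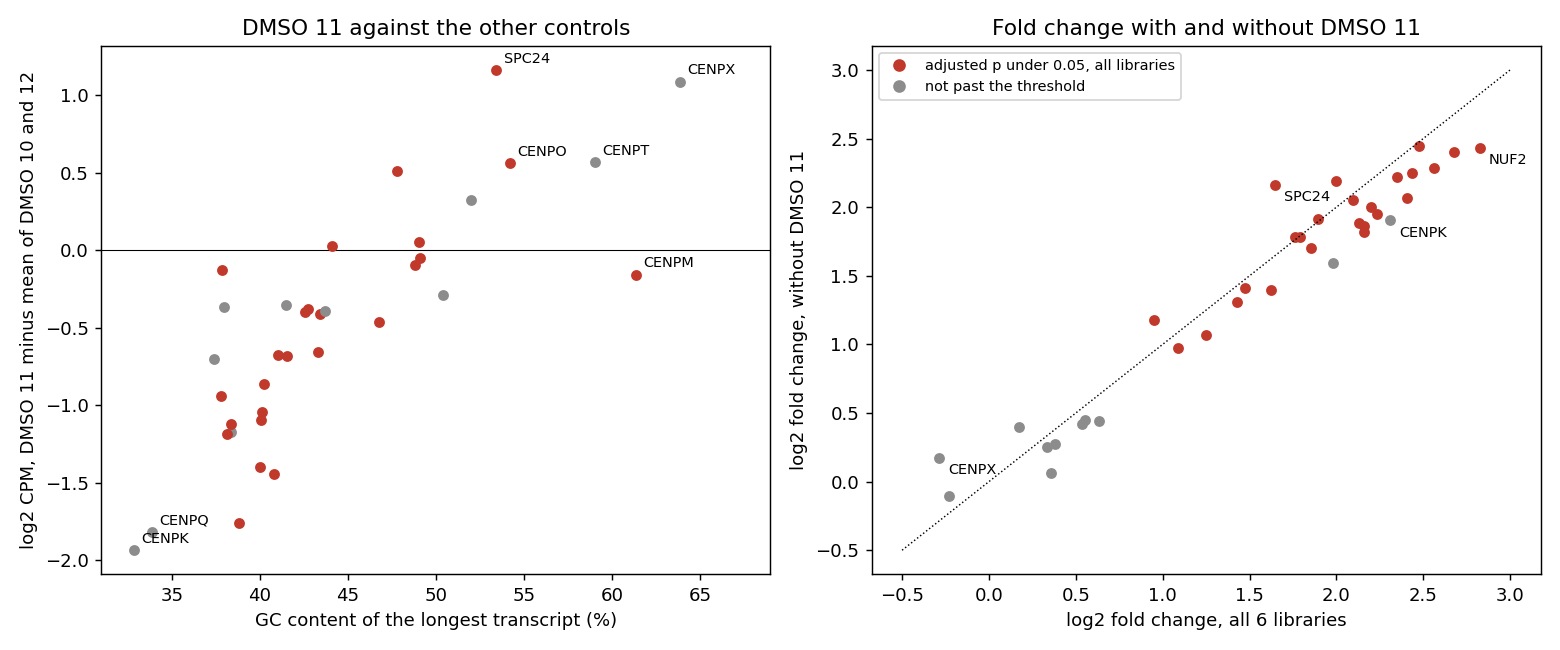
Left, the log2 difference of DMSO 11 from the mean of DMSO 10 and 12 (y axis) against the G and C content of the longest transcript (x axis) for the 36 genes. Right, the log2 fold change without DMSO 11 (y axis) against that with all 6 libraries (x axis), with a dotted line of equality; NUF2 lies below the line (2.43 against 2.83) and SPC24 above it (2.16 against 1.64), with red for genes past the threshold with all libraries and grey for the rest.

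Of the 25 calls, 11 held without each library in turn and 14 did not. The 11 were CENPA, HJURP, MIS18A, CENPN, CENPI, CENPW, ZWINT, NDC80, SKA1, SKA3 and SPDL1. The number of the 36 called higher was 12, 13 and 11 without fenbendazole 7, 8 and 9, where 0.763%, 0.787% and 0.793% of all genes were called higher. It was 20 without DMSO 10 (1.40%) and 24 without DMSO 12 (2.32%), and 0 were called lower in any of these fits. DESeq2 called 27 of the 36 higher (6.77% of all genes), and at an adjusted p of 0.01 in edgeR 14 were higher (1.11%). Calls of OIP5, CENPL, CENPH, CENPM, CENPO, KNL1, DSN1, NUF2, SPC24, SPC25, KNTC1 and CENPF were lost without each treated library, at adjusted p from 0.0509 (CENPH without fenbendazole 7) to 0.223 (CENPO without fenbendazole 8). The call of CENPU was lost without fenbendazole 7 (0.0551) and 9 (0.0616), and that of ZWILCH without fenbendazole 9 (0.0543). Without DMSO 10 the calls of CENPL (0.0524), CENPO (0.141), KNL1 (0.0575), SPC24 (0.125) and CENPF (0.0769) were lost, and without DMSO 12 those of CENPL (0.0536), CENPO (0.1) and SPC24 (0.0889). CENPK (0.0224) and CENPQ (0.039) passed without DMSO 12.

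Among 28 other genes that act at the centromere or kinetochore, 15 rose and 0 fell, and their median log2 fold change was 1.54. The passenger, shugoshin and mitotic kinase genes rose in 7 of 8 and checkpoint and corona genes in 5 of 7. Microtubule and dynein partners rose in 3 of 7 and further centromere genes in 0 of 6. BIRC5, which encodes survivin of the chromosomal passenger complex, had the smallest p. With fenbendazole, BIRC5 had 155, 164 and 164 CPM in libraries 7, 8 and 9, against 29.5, 26.1 and 19.4 CPM in DMSO 10, 11 and 12. It rose 6.43-fold, MAD2L1, which encodes a checkpoint effector, 4.87-fold and PLK1, a mitotic kinase, 4.97-fold. Among the centromere genes, ITGB3BP, which encodes CENP-R, was 2.14-fold (adjusted p = 0.153), with all treated libraries above all controls. CENPS, the histone-fold partner of CENP-X, was 1.28-fold (adjusted p = 0.309), RBBP4 1.09-fold, RBBP7 1.15-fold and CENPB, which binds the centromeric repeat, 0.754-fold (adjusted p = 0.449). Also under no call were BUB3 (1.53-fold, adjusted p = 0.0547), INCENP (1.61-fold, adjusted p = 0.0596), MAD1L1 (0.817-fold), CKAP5 (1.28-fold), NDEL1 (1.19-fold), CLASP2 (1.14-fold) and CLASP1 (0.916-fold), the last 5 with adjusted p from 0.231 (CKAP5) to 0.577 (CLASP1). The log2 fold change of CENPB was -0.41 with all libraries and 0.05 without DMSO 11.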

How the data were processed

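The authors deposited read counts per gene, and the FPKM values beside them were also made by the authors. Per the submitters' processing notes, HISAT2 2.1.0, StringTie 1.3.4b, CASAVA 1.8 and edgeR were used with GRCh38, and the deposited values do not state the strand setting of the counting. The counts of 6 libraries, 3 with fenbendazole and 3 with DMSO, were tested in edgeR 4.0.16 (R 4.3.3) with TMM scaling, its filter on low counts, a robust quasi-likelihood F test over the 17363 genes kept and Benjamini-Hochberg adjustment at 0.05. A standard error is the log2 fold change over the root of F. CPM used TMM-scaled library sizes. On the unscaled library totals, 3 counts are worth 0.136 to 0.228 CPM. FPKM served to compare genes. G and C content was that of the longest GENCODE transcript. The 36 genes were listed by name and complex, and they, the other lists and the tests were chosen with earlier results of these data known. The 36 were all named; of the 28 others, the 3 with the smallest p and those that did not pass were named, and some items are not reported here. The test was checked on simulated counts. Alternatives were 2 scalings, by median of ratios and by upper quartile, other filters on low counts, DESeq2 1.42.0, limma 3.58.1 on log2(FPKM + 1) or log2(FPKM + 0.1), offsets for G and C content and length, a stricter threshold and leaving out each library.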

Additional observations from a re-analysis of the deposited data

How the results depend on the processing

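No paired analysis was possible because library numbers run 7 to 9 in one group and 10 to 12 in the other. Over all genes, DESeq2 called 1726 genes (1004 higher, 722 lower), offsets for G and C content and length 3658 (2048 higher, 1610 lower), and a threshold of 0.01 called 210 (193 higher, 17 lower). Leaving out 1 library gave 147 to 3946 calls, 139 to 2313 higher and 8 to 1633 lower, the highest without DMSO 11. Of the 36 genes, a threshold of 0.01 called 14, leaving out 1 library 11 to 31, and the other scalings, filters and tests 24 to 30, all higher. Among uncalled genes, offsets for G and C content turned the sign of CENPX, CENPB (0.25 on the log2 scale), MAD1L1 (0.12), RBBP4 and RBBP7. Of the 28 other genes, 0.01 called 8 and leaving out 1 library 7 to 21. With upper-quartile scaling the call of CENPO was lost (adjusted p = 0.0554). CENPO also lost its call with no filter on low counts, and CENPO and SPC24 lost theirs with limma on FPKM at either pseudocount. With offsets for G and C content 5 genes were gained and none lost. The cause of these shifts was not tested. Leaving out a library leaves 2 in its group, which lowers the residual degrees of freedom. The depth of about 13170775 counts or more gave every one of the 36 genes values above the floor of 3 counts.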
